A study of Mus musculus with 47 samples.

Results

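The genes described here are 7 that mark or act in blood stem cells and their nearest descendants: Procr, Fgd5, Esam, Pdzk1ip1, Fhl1, Cd34 and Prom1. They were taken by symbol, as the probe sets that the platform annotation gives to 1 of these symbols and no other gene. That rule found all 7 of them among 18194 named genes, on 9 of 45101 probe sets, with 2 probe sets each for Pdzk1ip1 and Fhl1. Expression was measured on 47 Affymetrix arrays, each hybridised with amplified RNA of 2000 cells purified from adult bone marrow of C57Bl6 mice. All groups share that strain, tissue and preparation, and the labels name no mutation or treatment. The 17 groups begin with LTHSC (2 arrays), STHSC (2) and LMPP (5). The erythroid and megakaryocyte side holds MkE (4), PreCFUE (3), CFUE (3), ProE (3) and MkP (3), and the myeloid side GM (2) and GMP (3). Lymphoid groups are CLP (2) and ETP (3), then ProB (2), PreB (4) and IgM+SP (2), and CD4 (2) with NKmature (2). The labels spell out none of these names, and neither sorting markers, nor the age beyond adult, nor the sex or pooling of the animals were stated there. In common use LTHSC and STHSC stand for long-term and short-term stem cells, LMPP for lymphoid-primed progenitors, and the rest for later steps or mature cells of a lineage.

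Blood stem cells in the mouse are isolated by what they carry at the surface, and some of these molecules are shared with endothelium, from which blood stem cells arise in the embryo. Procr is the endothelial protein C receptor, which presents protein C for activation and is widely used to isolate mouse stem cells. Fgd5 is a guanine nucleotide exchange factor for the small GTPase Cdc42, and a reporter at its locus labels mouse stem cells. Esam is an adhesion molecule of endothelial junctions and platelets that belongs to the immunoglobulin superfamily. Pdzk1ip1 is a small membrane protein that binds PDZ-domain scaffolds, and Fhl1 is a LIM-domain protein best known from muscle. Cd34 is a sialomucin of progenitors and vessels that adult mouse long-term stem cells carry at low density. Prom1 is a membrane glycoprotein of cell protrusions, known as a stem cell marker mainly in human blood.

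Levels are log2 of the deposited intensity. They compare groups within a gene and say nothing of one gene against another, since each probe set has its own brightness. A group mean over 3.89, the median of all values, passed the filter on dim probe sets, and lower levels were not separated from background. In sorted bulk samples, fewer cells that express a gene and less of its RNA per cell cannot be told apart. The labels call arrays of a group biological replicates but name no animals, so a p-value takes in the spread of these arrays alone, which may be technical in part. Replicates correlated at 0.928 to 0.997, and 46 of 47 arrays were closest to an array of their own group; LTHSC replicate 2 was closest to an STHSC array. Other stem cell markers averaged 8.24 to 8.60 on the LTHSC arrays and no more than 7.41 on any other. The labels of ProB and PreB did not go with their markers throughout. Both ProB arrays carried natural killer markers, with a mean level over the marker list of 9.05 to 9.15, and PreB replicates 3 and 4 did so at 6.30 and 6.56, against 3.43 in PreB replicate 1. Sex-linked transcripts split the arrays. Xist alone was found on 21, Eif2s3y alone on 19 and both on 7. MkE and LTHSC, MkP and LTHSC, and GM and GMP thus share no such class. Their differences cannot be told apart from whatever goes with the class. Only PreB held arrays with Xist alone (replicates 1 and 2) beside arrays with Eif2s3y alone (replicates 3 and 4). For those comparisons, a fit with the class as a block therefore takes its shift from the PreB arrays alone. All 7 genes passed the filter in at least 1 group, and limma's F-test found all 7 to differ among the groups, with adjusted p from 2.1e-31 to 2.6e-17, as it did for 90.3% of all 13949 genes tested.

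**Figure D1:**
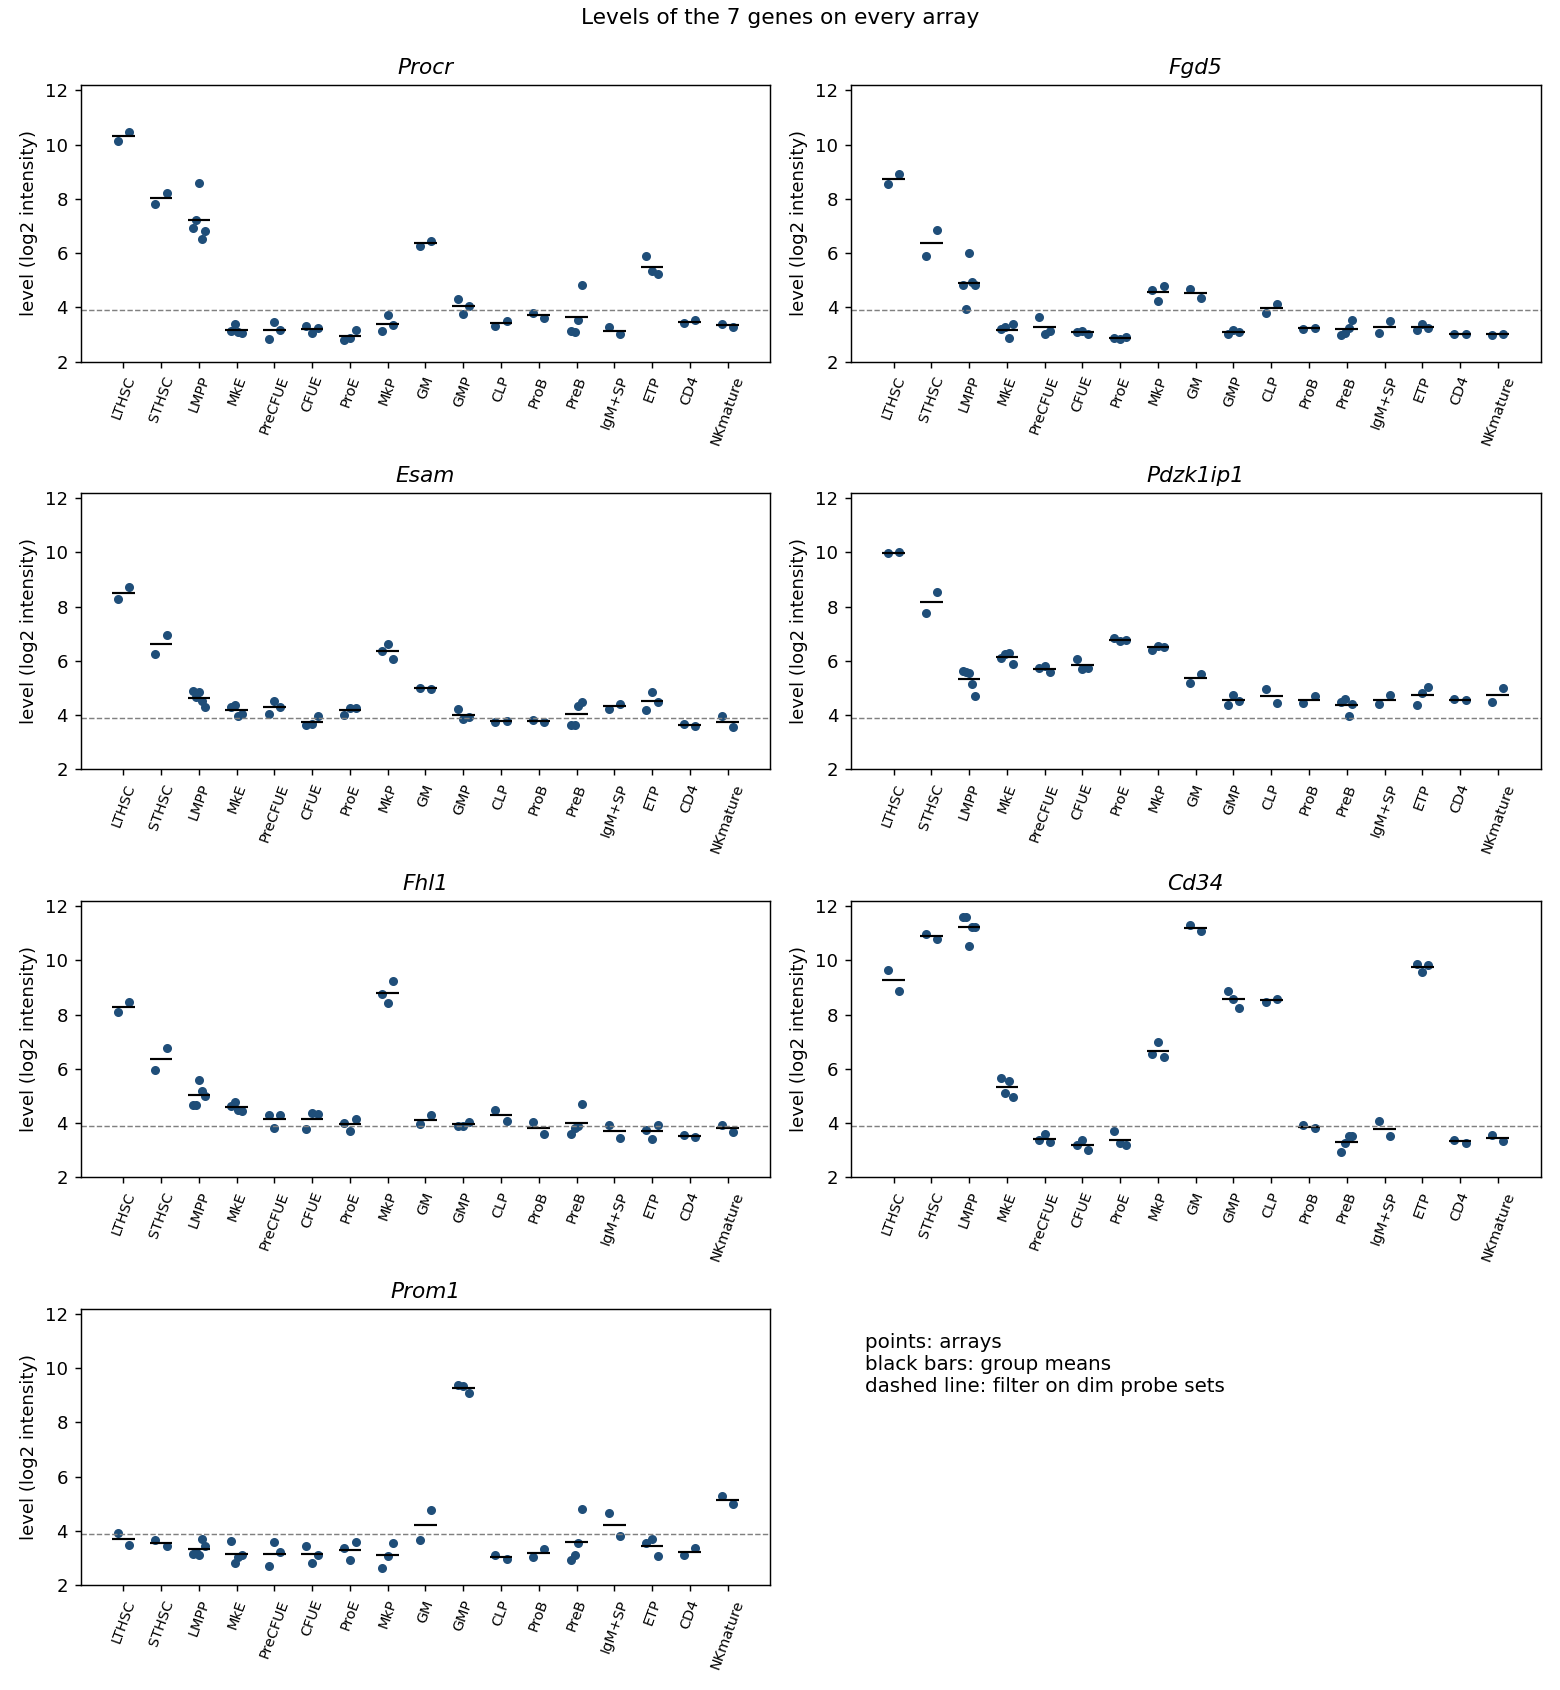
Level of each gene (log2 intensity, vertical axis) on every array, by group. Points are arrays, black bars are group means and the dashed line is the filter on dim probe sets at 3.89. Procr, Fgd5, Esam and Pdzk1ip1 are highest in LTHSC, Fhl1 is high in MkP and LTHSC, Cd34 is highest in LMPP and GM, and Prom1 is high in GMP.

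Procr, the protein C receptor, was highest in LTHSC and under the filter in most groups. LTHSC arrays had levels of 10.15 and 10.46, STHSC arrays 7.82 and 8.21, and LMPP arrays 6.94, 7.22, 8.60, 6.52 and 6.80. GM arrays read 6.27 and 6.45, ETP arrays 5.91, 5.35 and 5.24, and GMP arrays 4.32, 3.76 and 4.05. The LTHSC arrays stood above all others, STHSC and LMPP overlapped because of LMPP replicate 3, and GM and ETP followed with no overlap between them. The other 11 groups had means under the filter, from 2.94 in ProE to 3.7 in ProB. PreB replicate 4 alone among their arrays reached 4.81, and that array also had a megakaryocyte marker mean of 6.44, the other PreB arrays having no more than 4.98; the part of other cells in it was not tested.

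Fgd5, the Cdc42 exchange factor, followed the same order in the first 3 groups and also passed the filter in MkP and GM, and narrowly in CLP, where 1 of the 2 arrays was under it. LTHSC arrays read 8.54 and 8.91, STHSC arrays 5.88 and 6.86, and LMPP arrays 4.83, 3.95, 6.02, 4.92 and 4.82. MkP arrays had 4.62, 4.24 and 4.79, GM arrays 4.66 and 4.36, and CLP arrays 3.80 and 4.12. LTHSC stood apart, and from STHSC to CLP each group overlapped or lay within 2 standard errors of the next. The remaining 11 groups averaged 2.87 to 3.27, under the filter.

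Esam, the junctional adhesion molecule, was high in stem cells and again in the megakaryocyte branch. Its level was 8.27 and 8.73 in LTHSC, 6.27 and 6.97 in STHSC, and 6.36, 6.62 and 6.08 in MkP. STHSC and MkP overlapped, and both lay clear of every other group. GM had 5.00 and 4.98, LMPP had 4.89, 4.67, 4.86, 4.52 and 4.31, and MkE had 4.31, 4.39, 3.98 and 4.06. From GM downwards each group overlapped or lay close to the next, down to 3.64 ± 0.03 (SD, n = 2) in CD4.

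Pdzk1ip1, the PDZ-binding membrane protein, was the only one of the 7 to pass the filter in all 17 groups. Since each probe set has its own brightness, passing the filter does not by itself show expression in a group. It read 9.97 and 10 in LTHSC, 7.76 and 8.55 in STHSC, and 5.62, 5.59, 5.54, 5.16 and 4.69 in LMPP. In the erythroid groups it was 6.11, 6.26, 6.28 and 5.90 in MkE, 5.73, 5.81 and 5.60 in PreCFUE, 6.06, 5.72 and 5.74 in CFUE, and 6.86, 6.72 and 6.79 in ProE. MkP arrays had 6.42, 6.54 and 6.53. The mean was thus above that of LMPP in all 4 erythroid groups, although PreCFUE and LMPP overlapped. ProE came next after both stem cell groups, ahead of MkP by less than 2 standard errors. The lymphoid groups, GMP and NKmature averaged 4.36 to 4.75. Its second probe set gave the same order at the top, with 9.06 on both LTHSC arrays and 7.18, 7.08 and 7.26 on the ProE arrays, where STHSC (6.84 and 7.75) overlapped ProE. The 2 probe sets correlated at 0.96 over the 17 group means.

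Fhl1, the LIM-domain protein, was high in the megakaryocyte group and in LTHSC, and lower in STHSC. The level was 8.75, 8.44 and 9.25 in MkP, 8.11 and 8.47 in LTHSC, and 5.97 and 6.77 in STHSC. LMPP arrays had 4.66, 4.66, 5.58, 5.20 and 4.99, and MkE arrays had 4.62, 4.79, 4.47 and 4.44. MkP and LTHSC overlapped narrowly, STHSC stood alone between them and LMPP, and from LMPP (5.02) to CD4 (3.53) no group stood apart from the next. These values come from the brighter of its probe sets. The second never left background, with 2.58 to 3.85 on all 47 arrays, and did not pass the filter in any group.

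Cd34, the progenitor sialomucin, had a different order. LMPP arrays read 11.59, 11.58, 10.54, 11.23 and 11.23, GM arrays 11.30 and 11.08, and STHSC arrays 10.98 and 10.80. ETP followed with 9.86, 9.56 and 9.84, and LTHSC with 9.65 and 8.87. These fell into a top set of LMPP, GM and STHSC that overlapped, and a second set of ETP and LTHSC that overlapped. GMP had 8.86, 8.58 and 8.24, CLP had 8.48 and 8.59, MkP had 6.55, 6.98 and 6.43, and MkE had 5.65, 5.11, 5.54 and 4.97. GMP and CLP overlapped each other, MkP and MkE each stood apart, and the other 8 groups averaged 3.19 to 3.86, under the filter.

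Prom1, the glycoprotein of cell protrusions, stood out in GMP. GMP arrays read 9.39, 9.36 and 9.10, and NKmature arrays 5.30 and 4.99. GM arrays had 3.68 and 4.77, IgM+SP arrays 4.67 and 3.80, LTHSC arrays 3.92 and 3.48, and STHSC arrays 3.68 and 3.46. GMP stood clear of NKmature, NKmature of the rest, and the mean passed the filter in 4 groups. In GM only replicate 2 (4.77) was over it, and in IgM+SP only replicate 1 (4.67). In LTHSC and STHSC the means, 3.7 and 3.57, were under it.

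Promoter sequence is shown for Pdzk1ip1 and Cd34, which differed in opposite directions between the stem cell groups and whose 250 bases before the annotated start lie outside the annotated gene. The sequences are those of RefSeq for GRCm38.p6, at chr4:115088458-115088707 and chr1:194938571-194938820, both on the plus strand, 5′ to 3′ and ending at the base before the start. Capitals mark the motif CAGCTG, an E-box.
Pdzk1ip1: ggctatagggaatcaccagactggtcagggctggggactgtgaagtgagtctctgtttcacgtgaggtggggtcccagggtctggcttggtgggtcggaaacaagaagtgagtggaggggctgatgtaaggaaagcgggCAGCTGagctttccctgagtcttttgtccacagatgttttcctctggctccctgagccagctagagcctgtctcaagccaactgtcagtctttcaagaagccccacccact
Cd34: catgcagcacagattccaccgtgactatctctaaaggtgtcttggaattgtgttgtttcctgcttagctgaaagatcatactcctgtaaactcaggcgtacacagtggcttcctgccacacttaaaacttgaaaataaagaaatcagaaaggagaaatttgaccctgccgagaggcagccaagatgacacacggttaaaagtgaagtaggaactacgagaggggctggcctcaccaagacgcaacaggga
Besides the E-box, both strands were searched for AGATAA, a letter string bound by factors of the GATA family. The string CCGGAAG stood for the Ets family of factors, and TGTGGT for the Runx family. No string contains another. Pdzk1ip1 held CAGCTG 111 bases before the start, and no match was found for Cd34 or Fgd5. Procr held CAGCTG 34 bases before the start, Prom1 held TGTGGT at 24 bases before 1 of its 2 starts, and Fhl1 held it at 97 and 31 bases before the second of its 2 starts. Of all 32851 promoter windows of the same length, 9.99% held the string of the GATA family, 6.91% that of the Ets family, 14% that of the Runx family and 13% the E-box. Those matches describe letters in a window and no binding. Of the 7 genes, 6 had an entry, and Esam is named only.

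Between STHSC and LTHSC, 4 genes of the stem cell surface and signalling set that were highest in LTHSC fell by 3.54-fold to 5.13-fold in STHSC, Fhl1 fell with them, and Cd34 rose. The sorting markers were not stated, so whether Cd34 or another of the 7 was used to separate the groups is not known. The difference of a gene used for sorting would be no independent result. A gene was called where limma's adjusted p over all genes tested was under 0.05 and the difference was at least 2-fold. Procr differed by -2.29 ± 0.41 on the log2 scale (SE, adjusted p = 1.9e-04), Fgd5 by -2.36 ± 0.34 (adjusted p = 6.9e-06), Esam by -1.88 ± 0.27 (adjusted p = 6.4e-06) and Pdzk1ip1 by -1.82 ± 0.27 (adjusted p = 8.3e-06). Fhl1 differed by -1.92 ± 0.31 (adjusted p = 4.8e-05) and Cd34 by 1.63 ± 0.29 (adjusted p = 1.5e-04). None of these 6 overlapped between the groups, which also held for 47.2% of all genes. Prom1, under the filter in both, differed by -0.13, with a 95% interval of -0.95 to 0.69. Called lower were 5 of the 7 genes, against 4.75% of all genes, and 1 was called higher, against 2.06%; the median difference was -1.88 over the 7 and -0.13 over all genes. These calls rest on a spread pooled over 17 groups. With the STHSC and LTHSC arrays fitted alone, limma called 0 of the 7, adjusted p of the 6 running from 0.06 to 0.1, although all 6 had an unadjusted p under 0.05, and it called 3 genes of all.

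Markers of other lineages differed between the same groups. Erythroid markers were lower in STHSC, 3 of 6 tested being called, with means over the list of 3.92 and 4.46 in STHSC and 4.94 and 6.13 in LTHSC, where replicate 2 had the higher value. Myeloid markers were higher in STHSC, 4 of 9 being called, with 7.13 and 6.79 in STHSC and 5.98 and 5.57 in LTHSC. The part of these markers in the result was not tested.

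From STHSC to LMPP the fall went on for Pdzk1ip1, Esam, Fgd5 and Fhl1. Pdzk1ip1 was 7.16-fold lower in LMPP than in STHSC (-2.84 ± 0.22, adjusted p = 9.6e-12), and Esam was 3.91-fold lower (-1.97 ± 0.23, adjusted p = 7.3e-08). Fgd5 (-1.46 ± 0.28) and Fhl1 (-1.35 ± 0.26) were lower by less, both with adjusted p = 6.0e-04, and LMPP replicate 3 overlapped STHSC for Fgd5. Megakaryocyte markers moved the same way, 5 of 9 being called lower in LMPP, with array means over the list of 4.73 to 5.14 in LMPP and 6.38 to 7.07 in STHSC; their part in the result was not tested. The calls of these 2 were lost without STHSC replicate 2, at -0.97 (adjusted p = 0.092) for Fgd5 and -0.95 (adjusted p = 0.074) for Fhl1. That made 4 of 7 called lower, against 1.50% of all genes. Procr differed by -0.80 (interval -1.50 to -0.10, adjusted p = 0.15) and Cd34 by 0.34 (interval -0.15 to 0.83), neither called. Procr turned on 1 array, since without LMPP replicate 3 it was called at -1.15 (adjusted p = 0.0076). On that array Procr, Fgd5 and Fhl1 were the highest of the LMPP arrays and Cd34 the lowest, and its mean over other stem cell markers was 6.30, against 5.86 to 6.11 on the other 4. Among arrays with Eif2s3y alone, 2 of each group, Pdzk1ip1 differed by -2.55, Fgd5 by -1.98, Esam by -1.84, Fhl1 by -1.71 and Procr by -0.94.

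Across both steps, LMPP lay below LTHSC by 25.3-fold for Pdzk1ip1, 14.4-fold for Esam, 14.1-fold for Fgd5, 9.65-fold for Fhl1 and 8.55-fold for Procr. Cd34 was 3.94-fold higher in LMPP (1.98 ± 0.24, adjusted p = 4.8e-08). The share called was 6 of 7, against 12.5% of all genes. This comparison and those of STHSC, MkE and MkP with LTHSC share the LTHSC arrays.

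**Figure D2:**
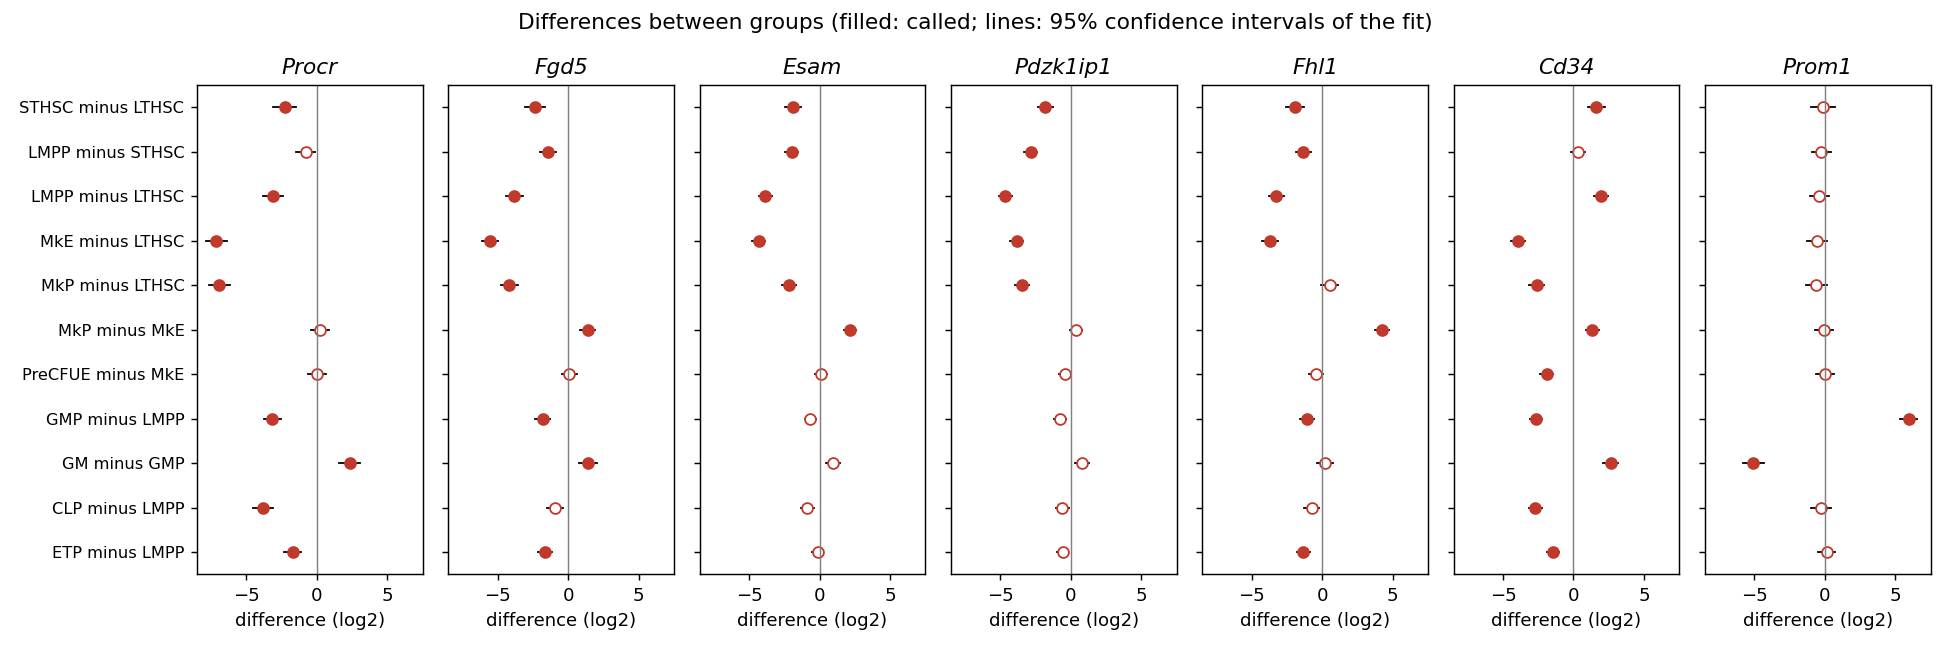
Difference of group means (log2, horizontal axis) for each gene in 11 comparisons, first group minus second. Circles are differences, filled where called, and lines are 95% confidence intervals of limma's fit. Pdzk1ip1, Esam, Fgd5 and Fhl1 are lower at both steps from LTHSC through STHSC to LMPP, Cd34 is higher in STHSC than in LTHSC, and Prom1 is called in the comparisons with GMP.

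In the megakaryocytic and erythroid branch, 6 of the 7 genes were lower in MkE than in LTHSC, and 4 of them were higher again in MkP. Between MkE and LTHSC, Procr differed by -7.14 ± 0.36, Fgd5 by -5.55 ± 0.29 and Esam by -4.32 ± 0.23. Cd34 (-3.94 ± 0.25), Pdzk1ip1 (-3.85 ± 0.23) and Fhl1 (-3.71 ± 0.27) were lower too, and adjusted p was at most 1.5e-13. Called lower were 6 of 7, against 10.3% of all genes. Procr and Fgd5 were under the filter in MkE, so their differences are limited by background there. With the sex-linked class as a block, Procr differed by -6.10, Esam by -3.54 and Fhl1 by -3.13. The block takes its shift here from the PreB arrays alone, so these values do not separate class from group.

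MkP differed from MkE by higher Fhl1, Esam, Fgd5 and Cd34. Fhl1 was 18.8-fold higher in MkP than in MkE (4.23 ± 0.24, adjusted p = 2.1e-16), Esam 4.5-fold (2.17 ± 0.21, adjusted p = 1.9e-10), Fgd5 2.59-fold (1.37 ± 0.26, adjusted p = 1.2e-04) and Cd34 2.52-fold (1.33 ± 0.22, adjusted p = 1.7e-05). MkP and MkE did not overlap for these, as for 36.1% of all genes, and all 7 arrays carry Xist alone. Called higher were 4 of 7, against 2.96% of all genes, with a median of 1.33 over the 7 and -0.08 over all genes. Fgd5 was under the filter in MkE, and with intensities floored at 16 its difference was 0.55 (adjusted p = 0.07). Procr differed by 0.23 (interval -0.41 to 0.87) with both groups under the filter, and Pdzk1ip1 by 0.36 (interval -0.05 to 0.78). Megakaryocyte markers moved the same way, 7 of 9 being called higher in MkP, with array means over the list of 8.79 to 8.95 in MkP and 6.02 to 6.22 in MkE.

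Set against LTHSC, MkP had lower levels of 5 genes, and Fhl1 was not among them. Fhl1 differed by 0.53 ± 0.29 (interval -0.06 to 1.11, adjusted p = 0.15). With the sex-linked class as a block it was called higher in MkP at 1.10 (adjusted p = 0.023). For these groups that block takes its shift from the PreB arrays alone, part of which carried natural killer markers, so it cannot settle the difference. Fhl1 lies on the X chromosome, and MkP and LTHSC share no sex-linked class. Procr (-6.91 ± 0.38), Fgd5 (-4.18 ± 0.31), Pdzk1ip1 (-3.48 ± 0.24), Cd34 (-2.61 ± 0.26) and Esam (-2.15 ± 0.25) were lower in MkP, 5 of 7 against 16.6% of all genes, and Procr was under the filter in MkP. Pdzk1ip1 was lower by less on its second probe set (-2.26), and Esam by less with that block (-1.37, adjusted p = 7.6e-04). From MkE on to PreCFUE, Cd34 was the 1 gene of the 7 called, against 7.31% of all genes, and was 3.72-fold lower in PreCFUE (-1.89 ± 0.22, adjusted p = 3.2e-08), where it was under the filter. Pdzk1ip1 differed by -0.42 (interval -0.83 to -0.01) and Fhl1 by -0.45 (interval -0.94 to 0.04) in that comparison.

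At the myeloid step Prom1 rose, and Procr, Cd34, Fgd5 and Fhl1 fell. Prom1 was higher in GMP than in LMPP by 5.96 ± 0.30 (adjusted p = 2.0e-18). It was under the filter in LMPP, so that difference is limited by background, and with intensities floored at 16 it was 5.28. Procr was 8.99-fold lower in GMP (-3.17 ± 0.30, adjusted p = 1.2e-10), Cd34 6.37-fold lower (-2.67 ± 0.21, adjusted p = 8.5e-13) and Fgd5 differed by -1.82 ± 0.25 (adjusted p = 2.6e-07) with its GMP mean under the filter. Fhl1 was just past the fold (-1.07 ± 0.23, adjusted p = 3.0e-04). Esam (-0.64, adjusted p = 0.01) and Pdzk1ip1 (-0.76, adjusted p = 0.0019) passed on p and not on fold. In all 5 of 7 were called, against 16.8% of all genes. The Fhl1 call was lost without LMPP replicate 3 (-0.93), and that of Fgd5 with the floor of 16 (-0.92). Among the 3 GMP and 2 LMPP arrays with Eif2s3y alone, Prom1 differed by 6.11, Procr by -3.03, Cd34 by -3.02, Fgd5 by -1.30 and Fhl1 by -0.71, which is under 2-fold. Myeloid markers were higher in GMP, with 7 of 9 called.

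In group means, GM lay nearer to LMPP than to GMP for 6 of the 7 genes, Fhl1 being the exception; GM and LMPP were not tested against each other. Prom1 was 33.4-fold lower in GM than in GMP (-5.06 ± 0.37, adjusted p = 5.3e-13). Cd34 was 6.18-fold higher in GM (2.63 ± 0.26, adjusted p = 1.6e-09), Procr 4.99-fold (2.32 ± 0.38, adjusted p = 2.6e-05) and Fgd5 was higher by 1.42 ± 0.31 (adjusted p = 0.0013) with its GMP mean under the filter. With the sex-linked class as a block, Prom1 differed by -3.91 and Procr by 3.36, the shift again coming from the PreB arrays alone. Called were 3 higher, against 5.00% of all genes, and 1 lower, against 2.95%. Esam lay at the fold threshold (0.98, adjusted p = 0.0056) and was called when arrays were centred on their medians (1.02), with array weights (1.06), with that block (1.76) and without GMP replicate 1 (1.09). Pdzk1ip1 (0.80, adjusted p = 0.023) was called on its second probe set (1.44), and Fgd5 lost its call with the floor of 16 (0.51, adjusted p = 0.29). Fhl1 differed by 0.18 (interval -0.40 to 0.76). Myeloid markers were high in both groups, with 2 of 9 called lower in GM.

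Toward the lymphoid lineages, Procr and Cd34 were lower in both CLP and ETP than in LMPP. The mean of Procr was 5.50 in ETP and 3.41 in CLP, and that of Cd34 was 9.75 and 8.53. In CLP against LMPP, Procr differed by -3.81 ± 0.35 (adjusted p = 9.5e-11) and Cd34 was 6.51-fold lower (-2.70 ± 0.24, adjusted p = 6.4e-11). Procr was under the filter in CLP, and with the floor of 16 its difference was -3.21. With 2 of 7 called lower, against 18.1% of all genes, the share was close to the background. Fgd5 (-0.95, adjusted p = 0.0073) and Esam (-0.88, adjusted p = 0.002) stayed under the fold, and both were called after quantile normalization (-1.16 and -1.08) or centring on array medians (-1.12 and -1.05); that centring moves the CLP minus LMPP difference of every gene by -0.17, and that of MkP minus MkE by -0.11. Among arrays with Eif2s3y alone, Procr differed by -3.67, Cd34 by -3.06, Esam by -1.01 and Fgd5 by -0.43, and with that class as a block Fgd5 differed by -0.59 (adjusted p = 0.1). B lineage markers were higher in CLP, with 6 of 8 called. Of all 13949 genes, 2959 were called either way in this comparison, 2521 of them lower in CLP.

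In ETP against LMPP, Procr (-1.71 ± 0.30, adjusted p = 4.3e-05), Fgd5 (-1.64 ± 0.25, adjusted p = 4.7e-06), Cd34 (-1.48 ± 0.21, adjusted p = 1.6e-06) and Fhl1 (-1.33 ± 0.23, adjusted p = 3.3e-05) were lower in ETP. These are 4 of 7, against 4.81% of all genes. Esam differed by -0.14 (interval -0.54 to 0.26) and Pdzk1ip1 by -0.58 (interval -0.97 to -0.18). Fgd5 and Fhl1 were under the filter in ETP, and the Fgd5 call was lost with the floor of 16 (-0.92). Between the 2 ETP and 3 LMPP arrays with both sex-linked transcripts, Procr differed by -2.01, Fgd5 by -1.94, Fhl1 by -1.60 and Cd34 by -1.30. Between the 1 ETP and 2 LMPP arrays with Eif2s3y alone, Procr differed by -1.17, Fgd5 by -1.21, Fhl1 by -0.90 and Cd34 by -1.72. ETP and CLP were not tested against each other.

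Over the 17 group means the 10 pairs of the 5 genes high in LTHSC correlated at 0.54, for Procr and Fhl1, to 0.93, and at -0.15 to 0.86 among the groups other than LTHSC and STHSC. Fgd5 and Esam correlated at 0.93, Procr and Fgd5 at 0.91, Esam and Fhl1 at 0.89, and Esam and Pdzk1ip1 at 0.88. Without LTHSC and STHSC, over 15 groups, Esam and Fhl1 were still at 0.86, whereas Fgd5 and Esam were at 0.69, Procr and Fgd5 at 0.68, Esam and Pdzk1ip1 at 0.49, and Procr and Pdzk1ip1 at -0.15, having been at 0.68. Procr and Cd34 went the other way, with 0.84 over 15 groups and 0.75 over 17. Prom1 lay between -0.22 and 0.16 with each of the others over 17 groups. The points share arrays and the levels near background, and these values are descriptions.

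**Figure D3:**
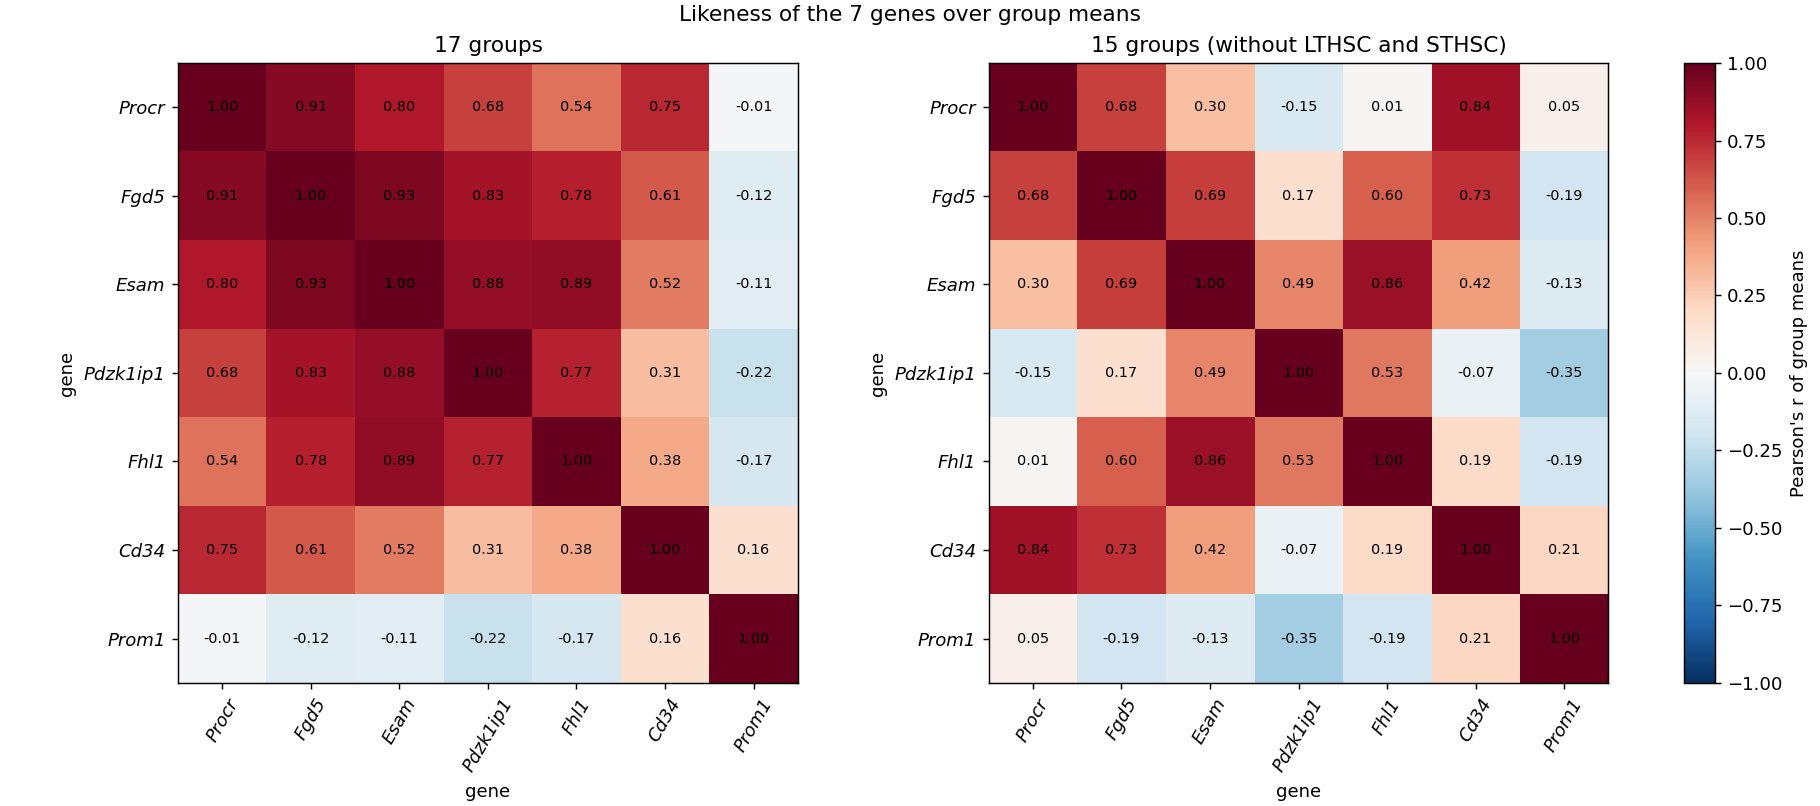
Pearson's r of group means for each pair of the 7 genes, over 17 groups (left) and over the 15 groups other than LTHSC and STHSC (right). Colour and number give r. Esam and Fhl1 stay at 0.86 without the stem cell groups, while Procr and Pdzk1ip1 go to -0.15, against 0.68 with them.

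The genes most like each were found among 7436 tested genes whose group means span at least 2 (log2), by r over the 17 group means. Procr was closest to Robo4 (0.96), a receptor of endothelium, Islr (0.95), Camk1 (0.94), and Hlf and Casp12 (both 0.93). Fgd5 was closest to Cyp7b1, Islr, Ndn and Casp12 (each 0.98) and Fstl1 (0.97), and 64 genes were over 0.9 for it. Esam was closest to F11r (0.97), a junctional adhesion molecule, then Cavin3 and Tbxas1 (0.95), Nbea and Trpc6 (0.94). For Pdzk1ip1 these were Phlda2, Gstt1, Fam110c and Cavin1 (0.94) and Trim47 (0.92). Fhl1 was closest to Mmrn1 and Trpc6 (0.97), Shroom4 (0.95), Pf4 (0.92), the platelet factor of megakaryocytes, and Myom1 (0.91), and 7 genes in all passed 0.9. For Cd34 they were Adgrl4 (0.96), Dipk1b (0.94), Mmp2 and Afap1l1 (0.93) and Erg (0.92). Prom1 went with Chst13, Clec4a2 and Trem3 (0.96), Gca and Mtus1 (0.95), all 5 highest in GMP.

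Other stem cell markers were read from a list of 26, of which 23 were measured and tested. In 16 of them the highest group mean was in LTHSC, as in 4 of the 7 genes. STHSC had 12 called lower than LTHSC, and 7 without LTHSC replicate 2, the median being -1.21. The largest over all arrays were Vwf (-4.24 ± 0.50), which encodes von Willebrand factor, the cell cycle inhibitor Cdkn1c (-3.15 ± 0.28), the homeobox gene Hoxb5 (-3.11) and Mllt3 (-3.02), a component of the super elongation complex. Vwf read 4.44 and 7.09 on the STHSC arrays, so that its place among these rests on 1 of them, and Hoxb5 was under the filter in STHSC. LMPP had 5 of 23 called lower than STHSC, and 9 without STHSC replicate 1, the largest over all arrays being Vwf (-2.80), Gata2 (-2.72), Tek (-2.49) and Tie1 (-2.06). Vwf was at -1.48 without STHSC replicate 2. Tek was at -1.02 (adjusted p = 0.11) without that array and at -3.96 without STHSC replicate 1. MkE had 15 called lower than LTHSC, led by the transcription factor Hlf (-5.92), Ndn (-5.25), Mecom (-5.23) and Cdkn1c (-4.71).

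Some of these markers were found again in MkP, as Esam and Fhl1 were. MkP had 7 of 23 called higher than MkE, among them Vwf (4.19), Ctnnal1 (2.68), Mecom (2.48) and Ndn (2.09), and 1 lower, the receptor Kit (-2.12). Against LTHSC, 13 were lower in MkP and 3 higher, which were Cd9 (1.68), Vwf (1.19) and Neo1 (1.04). Only 1 of these 3 was called after leaving out any 1 of LTHSC replicates 1 and 2 and MkP replicates 1 and 3. GM had 7 called higher than GMP, led by Meis1 (3.36), Hlf (3.04), Cd27 (2.98) and Adgrg1 (2.94). GMP had 8, CLP 10 and ETP 7 called lower than LMPP. Hlf was the largest in CLP (-4.32) and in ETP (-4.53), and the early response gene Egr1 in GMP (-4.83), on LMPP arrays that ran from 5.93 to 11.20. PreCFUE had 8 called lower than MkE, led by Meis1 (-4.16), and 1 higher, the transporter Abcg2 (1.06), whose call was lost without MkE replicate 1 (0.98) or PreCFUE replicate 1 (0.91). Of all genes, 4.75% were called lower in STHSC than in LTHSC, 1.50% in LMPP than in STHSC, and 10.3% in MkE and 16.6% in MkP than in LTHSC. Lower than in LMPP were 18.1% in CLP and 4.81% in ETP, so their counts are not alike in background. Called higher were 2.96% in MkP than in MkE and 5.00% in GM than in GMP. Between MkP and LTHSC, 3145 of 13949 genes were called either way, 2309 of them lower in MkP. Between MkP and MkE, 1606 were called either way, 413 of them higher in MkP. Called either way were 16.8% between GMP and LMPP and 7.31% between PreCFUE and MkE. These lists were chosen with earlier results of these arrays known, so the counts are descriptions.

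**Figure D4:**
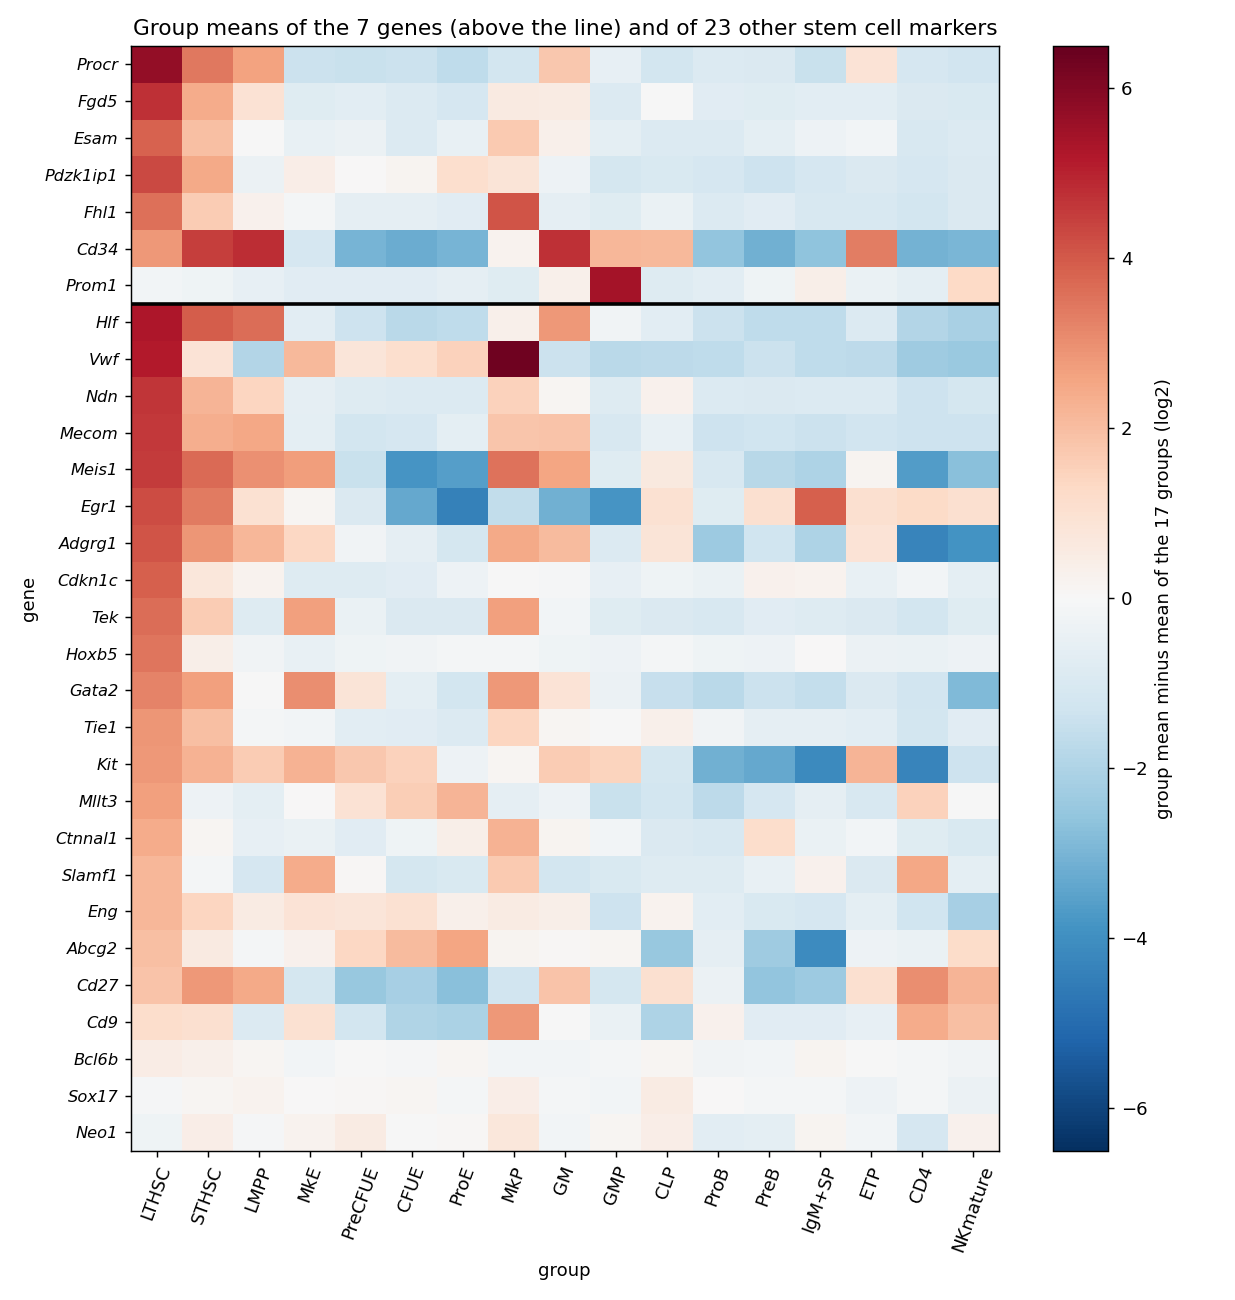
Group mean minus the mean of the 17 groups (log2, colour) for the 7 genes, above the line, and for 23 other stem cell markers, below it. Columns are groups. In 16 of the 23 markers and 4 of the 7 genes the highest mean is in LTHSC, and Vwf, like Fhl1, is highest in MkP.

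Since several of the 7 genes are also made by endothelium, endothelial markers were read beside them. Over the list of 11 the mean level was 4.72 to 4.74 on the STHSC arrays and 5.33 to 5.45 on the LTHSC arrays, and no more than 4.67 on any array of the other groups. STHSC had 4 of 11 called lower than LTHSC, against 4.75% of all genes. Robo4 read 5.36 and 5.63 in STHSC, against 7.05 and 7.33 in LTHSC, and Kdr read 5.31 and 4.83, against 6.39 and 7.14. Cdh5, the cadherin that defines endothelium, was under the filter in both, with 3.29 and 3.14 in STHSC and 3.17 and 3.29 in LTHSC. Its mean was over the filter in 1 of the 17 groups, ProB, with arrays of 4.97 and 6.83, and the median of all arrays outside STHSC and LTHSC was 3.12. Pecam1 was under the filter in both groups as well, and over it in only 3 of the 17 groups. On both LTHSC arrays Emcn (5.03 and 5.90), Sox18 (4.83 and 5.05) and Tie1 (6.67 and 6.86) were over the filter. Clec14a (4.34 and 3.86) and Flt1 (3.69 and 4.00) were over it on 1 LTHSC array, and Plvap and Egfl7 passed in all 17 groups. The part of endothelial cells in these samples was not tested.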

How the data were processed

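RNA of 2000 cells per array was hybridised after dual amplification, and the authors deposited 1 linear intensity per probe set and array, calculated with RMA per the series' design text. Its version and the scaling between arrays are not given in the sources read, and no detection call comes with the values. Array medians ran from 13.8 to 16.9, and amplification of little RNA adds to the spread between arrays.

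Log2 was taken without a pseudocount. Groups came from the sample labels. Of 45101 probe sets the platform annotation lists 35890, 34958 with 1 symbol and 932 with several, and 9211 are unnamed here. A gene was read from its brightest probe set over all arrays. The 13949 genes with a group mean over 3.89 were tested with limma 3.58.1 in R 4.3.3, in 1 model of 17 group means (30 residual degrees of freedom), two-sided, with Benjamini-Hochberg adjustment over all genes tested within each of 11 comparisons. A gene was called at adjusted p under 0.05 and at least 2-fold. Neighbouring groups in an order were said to lie apart where arrays did not overlap and means differed by over 2 standard errors.

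All 7 genes are named, as are, for each, the 5 most like it, and from marker lists up to 4 called genes per direction and comparison with the largest differences. The members and lists were chosen with earlier results of these data known. The fit was tested on simulated data with known changes. Alternatives were the mean of all probe sets or the other probe set, filters, quantile normalization again, centring on array medians, a floor of 16, array weights, blocks for replicate number and sex-linked class (Xist over 7, Eif2s3y over 5), a fit of only the compared groups, and each array left out in turn. A fit without the ProB arrays and PreB replicates 3 and 4 was added after seeing the data, as was leaving out each array in turn for the marker lists. Figures were drawn with matplotlib 3.10.9.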

Additional observations from a re-analysis of the deposited data

How the results depend on the processing

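Of 77 differences (7 genes in 11 comparisons), 47 were called. Of these, 33 kept their call under every alternative that tested them, and 14 lost it under at least 1. Among the 30 uncalled ones, 6 gained a call under at least 1. Fhl1 was not tested on its other probe set, which did not pass the filter in any group. No direction reversed among the called differences. With the compared groups alone, 0 of the 7 genes, against 6, were called between STHSC and LTHSC by limma on 2 residual degrees of freedom (6 at an unadjusted p under 0.05), and 2, against 4, between LMPP and STHSC. With quantile normalization again or centring on array medians, 4 of the 7 genes, against 2, were called between CLP and LMPP. Leaving out each array in turn gave 2 to 5 called between LMPP and STHSC, 4 to 5 between GMP and LMPP and between GM and GMP, and 2 to 3 between CLP and LMPP, and other counts stayed as reported. Without the ProB arrays and PreB replicates 3 and 4, a choice made after seeing the data, no count of the 7 genes changed in any comparison.

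With the mean of all probe sets, Fhl1, whose second probe set is at background, differed by -0.66 between STHSC and LTHSC, -0.78 between LMPP and STHSC, -0.71 between GMP and LMPP and -0.85 between ETP and LMPP, all uncalled. With the sex-linked class as a block, the Fhl1 call between GMP and LMPP was lost at -0.86. Replicate numbers did not pair the samples throughout. Of 26 same-numbered pairs, 9 correlated over 0.1 in their deviations from group means, among them both of STHSC and LTHSC (0.38 each). With 2 arrays per group the deviations mirror each other, so these 2 values are equal by construction and cannot settle it. In that comparison the block changed no call of the 7 genes. The replicate block ended 1 call, Fhl1 between GMP and LMPP at -1.0 (adjusted p = 0.00073), and moved the all-gene count between LMPP and STHSC to 457, against 756. In no comparison with 3 numbers in common did every sample correlate best with its own number, the most being 4 of 6 samples, in GMP minus LMPP.

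Counts over all genes moved by over 1.5 times as follows. With the mean of all probe sets they were 557, against 950, for STHSC minus LTHSC; 382, against 756, for LMPP minus STHSC; 1753, against 2690, for MkE minus LTHSC; 2056, against 3145, for MkP minus LTHSC; 960, against 1606, for MkP minus MkE; 638, against 1020, for PreCFUE minus MkE; 1547, against 2350, for GMP minus LMPP; 1929, against 2959, for CLP minus LMPP; and 1051, against 1664, for ETP minus LMPP. STHSC minus LTHSC had 540 with array weights, 3 with the groups alone and 377 without STHSC replicate 1. LMPP minus STHSC had 488 with the class block, 226 with the groups alone and 399 without STHSC replicate 1. The class block gave 4821 for MkE minus LTHSC, 5261 for MkP minus LTHSC and 2457, against 1109, for GM minus GMP. In these comparisons that block takes its shift from the PreB arrays alone. The count for GM minus GMP also moved by over 1.5 times without GM replicate 2, which left a single GM array. Groups of 2 arrays and levels near background limit the small differences.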

Other observations

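Relatives and partners of the 7 genes were read from a list of 29, of which 27 were measured and 24 tested. In STHSC, 4 were called lower than in LTHSC: the junctional adhesion molecules Jam3 (-1.60 ± 0.21, adjusted p = 1.4e-06) and F11r (-1.18 ± 0.28, adjusted p = 0.004), coagulation factor F5 (-1.39 ± 0.35, adjusted p = 0.0073) and Pros1 (-1.38 ± 0.33, adjusted p = 0.0051), which encodes protein S, the cofactor of activated protein C. Without LTHSC replicate 2 only 1 of these was called, F5 being at -0.70 (adjusted p = 0.34), Pros1 at -1.01 (adjusted p = 0.14) and F11r at -0.99 (adjusted p = 0.081), and without STHSC replicate 1 there were 2. F5 read 3.88 and 5.26 in LTHSC and was under the filter in STHSC. F11r was lower again in LMPP than in STHSC (-1.45 ± 0.23), as was the adhesion molecule Selp (-1.49 ± 0.29), and Fgd4, an exchange factor related to Fgd5, was higher (1.06 ± 0.29, adjusted p = 0.013). Selp lost its call without STHSC replicate 2 (-1.09, adjusted p = 0.064), and Fgd4 without STHSC replicate 1 (0.75, adjusted p = 0.4), LMPP replicate 4 (0.94) or LMPP replicate 5 (0.86).

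MkP had 6 of the 24 called higher than MkE, with Selp (4.28 ± 0.26, adjusted p = 2.3e-15), F5 (2.40 ± 0.27), the thrombin receptor gene F2rl2 (2.38 ± 0.20) and Pros1 (1.76 ± 0.25) the largest. Procr itself was under the filter in both groups. GM had Selp (3.36 ± 0.32, adjusted p = 3.5e-10) and the thrombin receptor F2r (2.87 ± 0.89, adjusted p = 0.027) among 4 called higher than in GMP, and F5 (-2.04 ± 0.32) and the thrombin-binding Thbd (-1.81 ± 0.35, adjusted p = 3.5e-04) as the 2 called lower. The F2r call was lost without any 1 of the 5 arrays (adjusted p = 0.057 to 0.19), and 2 of the 4 were left without GM replicate 1, GM replicate 2 or GMP replicate 3. Both F5 (1.58 ± 0.25) and Thbd (1.87 ± 0.28) were higher in GMP than in LMPP, as was Fgd4 (2.01 ± 0.25, adjusted p = 4.1e-08). Of all genes, 4.75% were called lower in STHSC than in LTHSC and 2.96% higher in MkP than in MkE. Between GM and GMP 5.00% were called higher in GM and 2.95% lower. The list was chosen with earlier results of these arrays known, and its counts are descriptions.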
